A study of Mus musculus with 13 samples.

Results

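The 9 genes described here encode lineage transcription factors of erythroid and myeloid cells: Gata1, Gata2, Klf1, Cebpa, Cebpb, Cebpe, Spi1, Irf4 and Gfi1. They were picked by gene symbol out of the 31053 genes of a single-cell RNA matrix from mouse lung, and all 9 were found. Their unique molecular identifiers (UMIs, each standing for 1 captured RNA molecule) were counted in the 33618 of 37344 barcodes in which mitochondrial genes gave at most 10% of the UMIs. The study examined emphysema induced in C57BL/6 mice by porcine pancreatic elastase (PPE) instilled into the airway. For single cells it used the lungs of 1 mouse each of an ovalbumin asthma model, a PPE-emphysema model given repeated instillations, a PPE-recovery model given a single one, and a control. The labels also list 3 acute injury, 3 control and 3 emphysema lung samples, for which no separate file was analysed here. No label ties the 7 numbered libraries of the matrix to a sample, so the matrix was taken as 1 sample, no groups were compared and no test was made.

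Lineage factors are sequence-specific DNA-binding proteins whose combinations set which blood cell a progenitor becomes. GATA1 works with its cofactor FOG1 and with KLF1 to switch on globin and heme genes in red cell precursors, and it also acts in megakaryocytes, eosinophils, mast cells and basophils, while GATA2 acts in stem cells, mast cells, basophils and endothelium. PU.1 (encoded by Spi1) and the C/EBP proteins direct granulocyte and macrophage genes, IRF4 acts in plasma cells and some dendritic cells, and GFI1 is a zinc finger repressor of neutrophil precursors and lymphocytes.

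Promoter sequences are shown for 3 members: the erythroid pair Gata1 and Klf1, whose products bind GATA and CACCC letters, and Cebpb, the member whose level set the libraries apart most. RefSeq windows on GRCm38.p6 (250 bases before to 50 after a start site) matched 7 of the 9 members, all but Cebpe and Spi1, in 9 windows, and the stretches printed end before the start site. Capitals mark the letters searched on both strands, CACACCC and TGATAA for the erythroid pair and TGACG for Cebpb, which do not overlap each other here. Each line runs 5′ to 3′ on the gene's own strand.
Gata1 (chrX:7967961-7968110, minus strand): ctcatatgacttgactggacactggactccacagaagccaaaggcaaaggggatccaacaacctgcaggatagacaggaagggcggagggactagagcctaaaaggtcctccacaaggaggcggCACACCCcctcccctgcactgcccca
Klf1 (chr8:84901782-84901926, plus strand): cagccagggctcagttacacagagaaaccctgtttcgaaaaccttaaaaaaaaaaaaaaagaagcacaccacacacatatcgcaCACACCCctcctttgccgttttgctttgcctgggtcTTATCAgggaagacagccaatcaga
Cebpb (chr2:167688715-167688914, plus strand): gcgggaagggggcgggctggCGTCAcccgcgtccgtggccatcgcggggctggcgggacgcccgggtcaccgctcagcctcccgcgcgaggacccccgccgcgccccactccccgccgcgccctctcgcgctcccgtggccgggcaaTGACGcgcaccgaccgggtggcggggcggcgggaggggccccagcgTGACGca

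Gata1 and Klf1 each held CACACCC, at 76 and 116 bases before the start site, letters present in 7.95% of the 32851 mouse windows. Klf1 also held TGATAA on its minus strand 80 bases before the start, letters found in 9.05% of windows. The Cebpb window held TGACG, the core of a cyclic AMP response element, 3 times, against at least once in 20.8% of all windows. AGATAA and AGGAAGT (a PU.1 type of ETS site) matched no member window, and the C/EBP letters TTGCNNAA matched that of Gfi1. A match describes letters only and is no evidence of binding.

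The 33618 cells fell into 44 clusters, built without the 9 genes, which were named into 24 classes from marker lists, apart from 1 cluster of 373 cells left unnamed. Each class name stands for cells like that type. Libraries 1, 2, 3 and 7 held 3301 to 7626 cells and libraries 4, 5 and 6 held 2992 to 4888. The sets differed beyond the label of lung tissue. Surfactant gene Sftpc ran from 2674 to 9212 UMIs per 1000000 (CPM) in libraries 1, 2, 3 and 7 and from 0 to 0.0660 CPM in libraries 4, 5 and 6, and endothelial Cdh5 from 101 to 342 against 0.135 to 0.377 CPM. Hemoglobin genes took 0.00963% to 0.0310% of the UMIs in the first set and 35.3% to 40.6% in the second, where no kept barcode had under 3439 UMIs, against a lowest of 304 to 501 elsewhere. At most 0.367% of the barcodes of the smaller library were shared between any pair of libraries.

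Below, a level is the CPM of all cells of a class summed, with its exact 95% Poisson interval. Intervals cover counting error only, and cells of a library share their source. The members covered a wide range of abundance, from 65 UMIs in 57 cells for Klf1 and 242 UMIs in 215 cells for Gata1 to 293260 UMIs in 17920 cells for Cebpb.

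**Figure D1:**
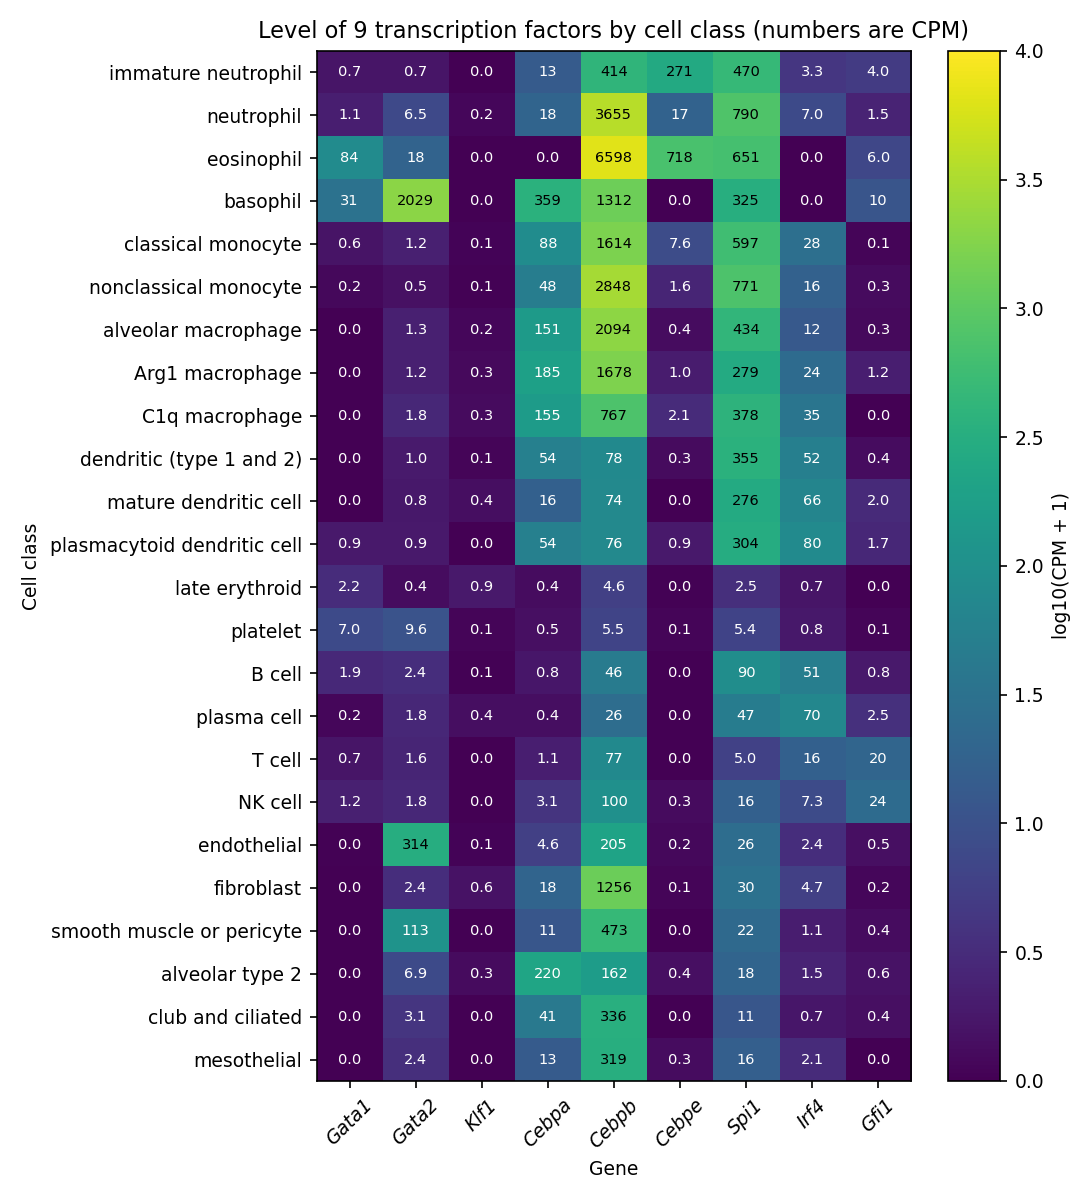
Heatmap of the 9 factors (columns) in 24 cell classes (rows), with color as log10(CPM + 1) and the CPM printed in each square. Gata2 peaks in basophils at 2029 CPM, Cebpe in eosinophils at 718 and immature neutrophils at 271, and Cebpb spans the myeloid rows.

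Gata1 (X:7959260-7978071, minus strand, GRCm38) was highest in eosinophils and basophils rather than in the red cell class. Its level was 84.4 CPM (46.2 to 142, 14 UMIs) in the 245 eosinophils and 31.2 CPM (16.1 to 54.5, 12 UMIs) in the 91 basophils, and these intervals overlap. In the 1495 cells of the megakaryocyte or platelet class it was 6.97 CPM (5.29 to 9.01) and in the 4024 late erythroid cells 2.21 CPM (1.67 to 2.86). Libraries 7 and 1 gave 13 and 1 of the eosinophil UMIs. Without library 7 the eosinophil level was 46.3 CPM and rested on 1 UMI. In basophils Gata1 stood at 31.1, 13.4, 24.6 and 117 CPM in libraries 1, 2, 3 and 7, with no UMI in the 1, 6 and 4 basophils of libraries 4, 5 and 6. The eosinophil barcodes were shallow, with a median of 555 UMIs, so 5.31% of them held a Gata1 UMI, against 0.463% of T cells at a median of 6230 UMIs.

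Hemoglobin made up 88.6% of the UMIs of the late erythroid class and 84.2% of the platelet class, which lowers every other gene's CPM. With the hemoglobin genes left out of the total, Gata1 stood at 19.3 CPM in late erythroid cells and 44.1 CPM in platelets. Clustered without alignment of the libraries, the class named late erythroid had 3.37 CPM of Gata1 in place of 2.21. That clustering drew the class anew, so the values may rest on different cells. Whether cells of the platelet class were among them was not tested. Late erythroid Gata1 was 3.02, 2.54 and 0.576 CPM in libraries 4, 5 and 6, from 27, 24 and 4 UMIs, so it was lowest in library 6, and library 7 held 1 UMI in 7 cells. At a finer clustering, a 138-cell platelet cluster stood at 36.6 CPM (24.7 to 52.2) from 30 UMIs, against 4.12 CPM (2.397 to 6.59) in a platelet cluster of 714 cells.

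Klf1 (8:84901928-84905291, plus strand), which activates adult beta globin, was scarce throughout. It reached 0.866 CPM (0.543 to 1.31, 22 UMIs) in late erythroid cells, next to 0.589 CPM (0.283 to 1.08, 10 UMIs) in fibroblasts, and those intervals overlap. A single library 7 barcode held 7 of the 22 late erythroid UMIs. That cell had 15491 UMIs, among them 1 of Gata1, 16 of Tal1, 5 of Zfpm1 (which encodes FOG1), 29 of the transferrin receptor gene Tfrc and 55 of the proliferation gene Mki67. One library 6 erythroid cell held 2 Klf1 UMIs and 18 of Mki67.

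The late erythroid class was spread unevenly over hemoglobin content. Of its 4024 cells, 3933 had 80% or more of their UMIs from hemoglobin, 77 had 50 to 80%, 1 had 20 to 50% and 13 had less. In the 3933 cells, with hemoglobin out of the total, Gata1 was 18.8 CPM (14.0 to 24.6) and Klf1 5.41 CPM (3.03 to 8.93). In the 77 cells Gata1 was 28.7 CPM (5.93 to 84.0, 3 UMIs) and Klf1 had no UMI, where 3 UMIs would be 28.7 CPM. These 2 ranges could not be told apart by either factor at this depth. The single cell from 20 to 50% is the library 7 cell with 7 Klf1 UMIs. No cluster took the name of an early erythroid, stem or progenitor type. Cluster 3, with 2244 of the late erythroid cells, scored highest on the early erythroid markers (2.16), but its top genes gave it the late name. Likewise cluster 38 scored highest on granulocyte-monocyte progenitor markers and was named plasmacytoid dendritic by its top genes.

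Genes that GATA1 and KLF1 are known to activate were present in the class where the factors were scarce. Of 9 such genes found, 8 were highest in late erythroid cells (among them Hbb-bs, Hbb-bt, Hba-a1, Alas2, Slc4a1, Hemgn and Car2) and Epor was highest in C1q macrophages, at 4.91 CPM. Hbb-bs, Hbb-bt, Hba-a1, Alas2 and Slc4a1 were also among the markers that named this class, so the naming set their place there. With hemoglobin left out, the 3933 cells had 23174 CPM of Alas2, the first enzyme of erythroid heme synthesis. Of the cofactors in the same cells, Lmo2 stood at 512 CPM, Zfpm1 at 39.0 and Tal1 at 14.8, and the erythroid factor Nfe2 at 40.4. With hemoglobin counted in the total, none of 5 cofactors of GATA factors was highest in an erythroid or platelet class. Zfpm1 was highest in NK cells (84.4 CPM), Ldb1 in T cells and Tal1 in basophils (75.3 CPM). Lmo2 led in endothelium (312 CPM) and Lyl1 in nonclassical monocytes. The 512 CPM of Lmo2 given above, with hemoglobin out, lies above the endothelial value, where hemoglobin took 0.0496% of UMIs. The other cofactors were not ranked with hemoglobin out. Gfi1b, a repressor of erythroid cells and megakaryocytes, was highest in the same classes as Gata1, at 31.2 CPM in basophils and 30.2 in eosinophils.

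Gata1 was also counted in lymphoid and myeloid cells of libraries 4, 5 and 6. B cells held 53 Gata1 UMIs there, at 2.80, 2.64 and 2.65 CPM, and none in libraries 1, 2, 3 and 7. In 6 classes of libraries 4, 5 and 6, the level differed with the platelet RNA in the same barcode, measured as UMIs of Ppbp and Pf4. It was 0.446 CPM (0.122 to 1.14, 4 UMIs) in 1101 cells without any, 0.289 CPM (0.0939 to 0.675, 5 UMIs) in 2163 cells with 1 or 2, and 3.07 CPM (2.43 to 3.82, 79 UMIs) in 3357 cells with 3 or more. Median depth was 7355, 6755 and 6249 UMIs in these cells. Most of the Gata1 UMIs of these classes thus lay in barcodes rich in platelet RNA, and B cells split likewise into 0.711, 0.628 and 4.34 CPM. Gata2 in the same ranges was 1.56, 0.521 and 2.91 CPM, and 114 T cells gave 10 of the 14 UMIs of the first range. Over these ranges Gata2 was 0.355, 0.785 and 3.78 CPM in B cells, from 1, 5 and 41 UMIs. It was 11.1, 0 and 1.93 CPM in T cells and 0, 1.69 and 0.956 CPM in NK cells.

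**Figure D2:**
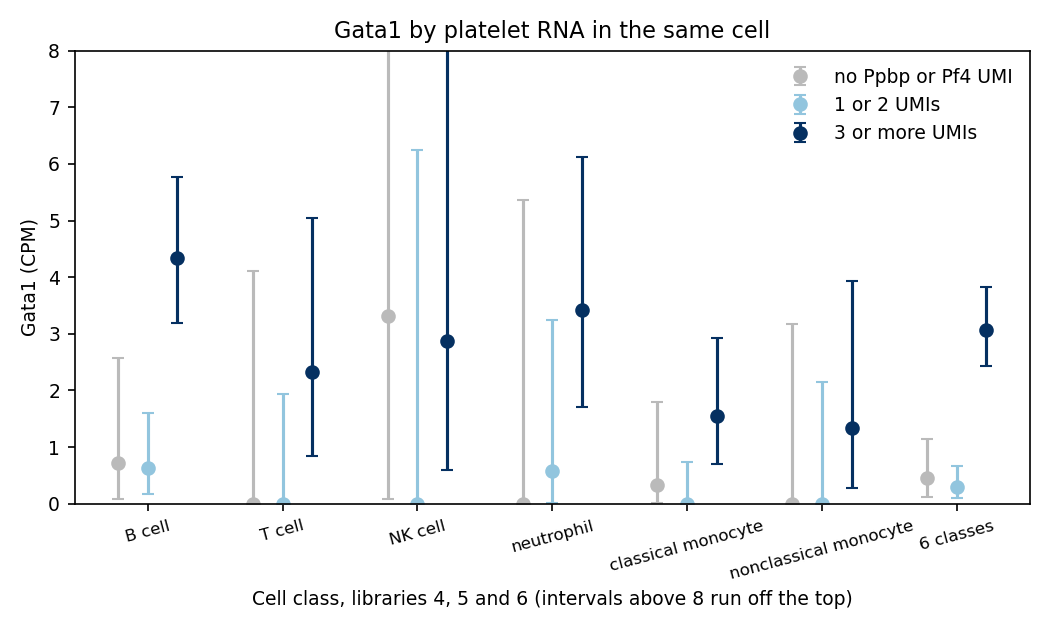
Gata1 level in CPM (points) with exact 95% intervals (bars) for 6 classes of libraries 4, 5 and 6 and for all 6 together, split by the Ppbp and Pf4 UMIs of the cell. In B cells the level is 4.34 CPM with 3 or more platelet UMIs and 0.711 without any; the longest NK cell intervals run off the top.

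Gata2 (6:88193891-88207032, plus strand) marked basophils most of all. Its level there was 2029 CPM (1889 to 2176), against 314 CPM (307 to 322) in endothelium and 113 CPM (104 to 122) in smooth muscle or pericytes, and these 3 intervals do not overlap. By library, basophil Gata2 was 2470, 1678, 2112 and 2301 CPM in libraries 1, 2, 3 and 7 and 751, 1372 and 1094 CPM in libraries 4, 5 and 6. The second set came out lower without overlap, but it held 1, 6 and 4 basophils. A Gata2 UMI was seen in 95.6% (89.1 to 98.8) of basophils at a median of 4128 UMIs, and in 85.6% once each cell was thinned to 1500 UMIs. In T cells, which should lack the gene, the share was 0.618% at a median of 6230 UMIs and 0.0523% when thinned. Endothelial Gata2 was 356, 271, 355 and 413 CPM in libraries 1, 2, 3 and 7, and no endothelial cell was found in the other 3.

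In the remaining classes Gata2 was low. Eosinophils held 3 UMIs (18.1 CPM, 3.73 to 52.9) and platelets 9.62 CPM (7.62 to 12), and in late erythroid cells it fell to 0.354 CPM from 9 UMIs. Neutrophils had 6.51 CPM, of which library 2 stood at 24.4 and the other 6 at 0.869 to 9.76. The basophil cluster also took in 2 cells rich in mast cell proteases (176 UMIs of Cma1, 49 of Mcpt4 and 31 of Tpsb2), which carried 10 Gata2 UMIs and none of Cebpa or Gata1. The other 89 cells had no UMI of those proteases and stood at 2038 CPM of Gata2. Of 4 mast cell and basophil genes known to be bound by GATA2, Hdc, Cpa3 and Ms4a2 were highest in basophils and Kit in endothelium, at 358 CPM. Ms4a2 was also among the markers that named the basophil class.

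Cebpa (7:35119293-35121928, plus strand), the C/EBP member that commits progenitors to granulocytes, was led by basophils at 359 CPM (301 to 424). Alveolar type 2 cells followed at 220 CPM (209 to 232), then Arg1 macrophages at 185 (178 to 191), C1q macrophages at 155 (147 to 163) and alveolar macrophages at 151 (148 to 155). The last 2 overlapped, and the rest were apart in their intervals. Basophil Cebpa was 342, 363, 270 and 423 CPM in libraries 1, 2, 3 and 7 and 429, 480 and 469 in libraries 4, 5 and 6. It was thus a little higher in the second set, where Gata2 was lower, though only 4, 14 and 9 UMIs underlie it.

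Neutrophil-lineage cells and eosinophils held little Cebpa. Neutrophils stood at 18.2 CPM, immature neutrophils at 13.3 CPM and eosinophils at 0 UMIs, where 3 UMIs would be 18.1 CPM. Classical monocytes had 87.7 CPM (83.8 to 91.7), by library 108, 93.5, 105 and 131 against 64.7, 143 and 97.8, which overlap. A short antisense gene, Gm45091, overlaps Cebpa but held 15 UMIs in all.

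Cebpb (2:167688915-167690418, plus strand), the C/EBP member of activated macrophages and of granulocyte output under stress, was highest in eosinophils and neutrophils. Its order was read within libraries 1, 2, 3 and 7, since its level differed between the library sets and eosinophils and macrophages came almost wholly from those 4. There neutrophils stood at 6774 CPM, within the interval of eosinophils at 6598 (6213 to 7001). Library 7 gave 211 of the 245 eosinophils, and without it their level was 4771 CPM. Neutrophils of library 7 stood at 5087 CPM, so these levels rest on unlike mixes of libraries. Nonclassical monocytes followed at 3465 CPM, classical monocytes at 2679, alveolar macrophages at 2094, Arg1 macrophages at 1678, fibroblasts at 1256 and C1q macrophages at 767. Basophils are left out of this order and stood at 1312 CPM over all 7 libraries, with values by library given below. Pooled over all 7 libraries, neutrophils were at 3655 CPM, nonclassical monocytes at 2848 and classical monocytes at 1614, the last below both alveolar and Arg1 macrophages. Arg1 macrophages ran from 1225 to 2380 CPM by library and alveolar macrophages from 1655 to 2375, so those classes overlapped, while the cluster of type 1 and type 2 dendritic cells had 78 CPM. The opposite-strand gene Tmem189 overlaps the Cebpb locus and held 17761 UMIs of its own.

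Between libraries 4, 5 and 6 and the other 4, Cebpb had the largest log2 ratio of the members tested in each of the 5 classes with at least 20 cells in every library. In neutrophils it was 5692, 7329, 7746 and 5087 CPM in libraries 1, 2, 3 and 7 and 476, 545 and 379 CPM in libraries 4, 5 and 6. Pooled, the second set was at 461 CPM and the first at 6774, a log2 ratio of −3.88 (−3.94 to −3.82). No library of one set came near the other.

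A gene was called set apart where the library sets did not overlap and their pooled levels differed at least 2-fold, among genes with 10 CPM in either set. By that rule Cebpb was the single member called in neutrophils, of 4 tested, against 12.7% of all genes tested. It was likewise the single member called, out of 4, in classical monocytes (background 4.57%) and in nonclassical monocytes (4.36%), and out of 3 in B cells (4.4%) and in T cells (6.65%). Called or not, the members' median absolute log2 ratio was 0.44 in neutrophils against 0.39 over all genes, 0.47 against 0.23 in classical monocytes, 0.43 against 0.24 in nonclassical monocytes, 0.24 against 0.29 in B cells and 1.86 against 0.31 in T cells.

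Classical monocytes gave 2433, 2668, 3020 and 2430 CPM of Cebpb in libraries 1, 2, 3 and 7 and 1017, 975 and 952 in libraries 4, 5 and 6, a log2 ratio of −1.41 (−1.44 to −1.38). Nonclassical monocytes gave 3618, 2980, 3636 and 2954 against 1532, 1958 and 1733 CPM, a log2 ratio of −1.07 (−1.10 to −1.03). The monocyte ratios were smaller than those in neutrophils, and in both classes every library of one set lay above every library of the other.

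Lymphocytes, with far less Cebpb, showed the same order. B cells had 108, 148, 159 and 91.6 CPM in libraries 1, 2, 3 and 7 and 11.2, 13.1 and 13.9 in libraries 4, 5 and 6 (log2 −3.19, −3.39 to −3.00). T cells had 109, 126, 109 and 108 CPM against 18.9, 21.2 and 17.7 (log2 −2.55, −2.86 to −2.26). The cluster of both dendritic types did not show this order throughout. Libraries 4 and 6 lay above libraries 1, 2, 3 and 7, at 258 and 108 CPM against 63.4 to 96.6. Library 5 lay below them at 27.6 CPM. Libraries 4, 5 and 6 held 29, 17 and 23 cells of this cluster. Basophils, too few for the rule, had 1483, 604, 2075 and 2207 CPM in libraries 1, 2, 3 and 7 and 107, 137 and 52.1 in libraries 4, 5 and 6.

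**Figure D3:**
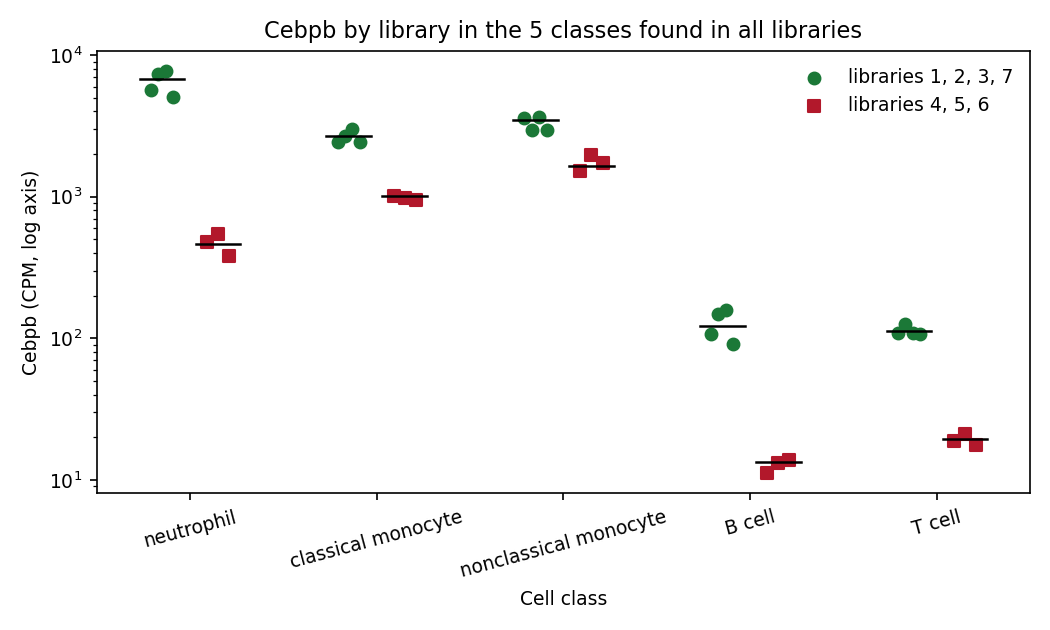
Cebpb level in CPM (log axis) in each of the 7 libraries (points) for the 5 classes with at least 20 cells in every library, with horizontal lines at the pooled level of each library set. In all 5 classes libraries 4, 5 and 6 lie below libraries 1, 2, 3 and 7, from 461 against 6774 CPM in neutrophils to 13.4 against 123 in B cells.

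Different clusters held most neutrophils of the library sets: cluster 8 for libraries 1, 2, 3 and 7 and cluster 18 for libraries 4, 5 and 6. Within cluster 18, Cebpb was 1929, 3254, 3637 and 1334 CPM in libraries 1, 2, 3 and 7 (2, 12, 7 and 7 cells) and 207, 564 and 395 in libraries 4, 5 and 6, so the sets stayed apart there, at a log2 ratio of −2.89. B cells also split, with cluster 1 mostly from libraries 4, 5 and 6 and cluster 17 mostly from the others. Within cluster 1 the pooled values were 13.5 against 48.8 CPM, a log2 ratio of −1.85 in place of −3.19, while cluster 17 gave −2.59 and the more balanced cluster 20, with 229 and 307 cells, −3.11. T cells gave −2.56 in cluster 12, mostly from libraries 1, 2, 3 and 7, and −2.25 in cluster 16, with 398 cells of each set. In nonclassical monocytes the ratio was −0.96 in cluster 10, which held most cells of each set, and −1.07 in clusters 19 and 41, the last with library 7 among the values of libraries 4, 5 and 6.

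A list of 15 immediate-early and stress genes, which rise within minutes of cell handling or activation, was compared after these values were seen. In neutrophils all 15 met the rule, each lower in libraries 4, 5 and 6, as with Fos at 328 against 3392 CPM, Egr1 at 11 against 1360 and Junb at 758 against 6754. In classical and nonclassical monocytes 13 and 12 of the 15 met it, in B cells 11 of 13 tested and in T cells 10 of 15, all lower in libraries 4, 5 and 6. Their median log2 ratio was −3.66 in neutrophils, −3.06 and −2.58 in the monocyte classes, −3.67 in B cells and −2.92 in T cells. The lowest depth kept, the hemoglobin share and the tissue genes also differed between the sets, and the part of any of these in the Cebpb result was not tested. The difference cannot be told apart from that between the libraries as such.

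The share of other known factors and targets that met the rule was above the background in each class, at 22.2% in neutrophils, 28.0% in classical and 25.0% in nonclassical monocytes, 31.3% in B cells and 33.3% in T cells, and red cell genes made up many of them. Of 27 related genes tested in neutrophils, apart from globins, 5 were higher in libraries 4, 5 and 6 (among them Bcl11a, Alas2, Slc4a1 and Car2) and Hdc was lower. Alas2 and Car2, both expressed in red cells, were higher in all 5 classes, and hemoglobin RNA was also higher in those libraries. Klf4, a factor of monocytes, was lower in classical monocytes and B cells.

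Cebpe (14:54710360-54712174, minus strand), the C/EBP member of late granulocyte maturation, was limited to granulocytes more sharply than its relatives. It was 718 CPM (595 to 859, 119 UMIs) in eosinophils and 271 CPM (245 to 299) in immature neutrophils, then 16.9 CPM (14.6 to 19.5) in neutrophils and 7.58 CPM in classical monocytes, with no overlap between neighbors. The other 20 classes ran from 0 to 2.13 CPM, basophils among those without a UMI. A Cebpe UMI was seen in 32.2% of eosinophils at a median of 555 UMIs and in 0 of 1943 T cells at a median of 6230 (95% binomial upper limit 0.19%).

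Library 7 carried the eosinophil value, with 211 of the 245 cells and 117 of the 119 UMIs, at 811 CPM. Library 1 stood at 106 CPM from 2 UMIs in 30 cells, and libraries 2 and 3 had 2 cells each and no UMI. Without library 7 the level was 92.6 CPM, below that of immature neutrophils. Immature neutrophils were found in every library but 122 of the 154 came from library 4. Their Cebpe was 206, 174, 201 and 135 CPM in libraries 1, 2, 3 and 7 and 294, 169 and 147 in libraries 4, 5 and 6, and without library 4 it was 168 CPM. It was 135 CPM with cells left out that held 3 markers of another lineage, a filter that counted hemoglobin genes among the erythroid markers. In mature neutrophils the library sets overlapped, at 27.3, 15.2, 16.9 and 20.1 against 13.3, 16.0 and 18.2 CPM (log2 −0.18, −0.60 to 0.25).

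Cebpe went with secondary granule RNA. All 5 granule genes known to need C/EBP epsilon (Ltf, Camp, Ngp, Lcn2 and Mmp8) were highest in immature neutrophils. These 5 genes were also among the markers that named that class, so their place there was set by the naming. Immature neutrophils had 24811 CPM of Ngp and 23629 of Camp. Neutrophil-lineage cells were split by the share of their UMIs from these 5 genes. Cebpe was 13.6 CPM (11 to 16.5) in 1489 cells under 0.1%, 22.3 (18 to 27.4) in 924 cells from 0.1 to 1%, 123 (97.4 to 154) in 70 cells from 1 to 5%, and 369 (330 to 411) in 91 cells at 5% or more. The 4 intervals do not overlap.

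Other members took a different course over the same ranges. Cebpb was 3768, 3438, 950 and 202 CPM from the lowest range to the highest, and Spi1 749, 861, 508 and 453. Cebpa was 21.3, 12.9, 27.2 and 3.32 CPM, the last from 3 UMIs. Library 4 gave 76 of the 91 cells in the top range and 119 of the 1489 in the lowest, and the part of library 4 in the Cebpb order was not tested. In immature neutrophils Cebpb was 154 CPM in the 122 cells of library 4. It was 4297, 1909, 1658 and 1352 CPM in libraries 1, 2, 3 and 7, from 6, 1, 10 and 10 cells. Libraries 5 and 6 gave 314 and 0 CPM from 4 and 1 cells. Mature neutrophils stood at 476 CPM in library 4 and at 5692, 7329, 7746 and 5087 CPM in libraries 1, 2, 3 and 7. Granulocyte-monocyte progenitors formed no cluster. Of 6 cells with at least 3 of the 5 progenitor markers (Mpo, Elane, Prtn3, Ctsg and Ms4a3), a library 3 cell grouped with plasmacytoid dendritic cells held 1710 marker UMIs of its 42883, with 5 UMIs of Cebpa, 11 of Cebpb, 1 of Cebpe, 2 of Spi1 and 0 of Gfi1. Of 4 genes known to be bound by C/EBP alpha, Csf3r was highest in neutrophils at 1922 CPM, and Mpo, Elane and Prtn3 were highest in the plasmacytoid class that holds this cell. Csf3r was also among the markers that named the neutrophil class.

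**Figure D4:**
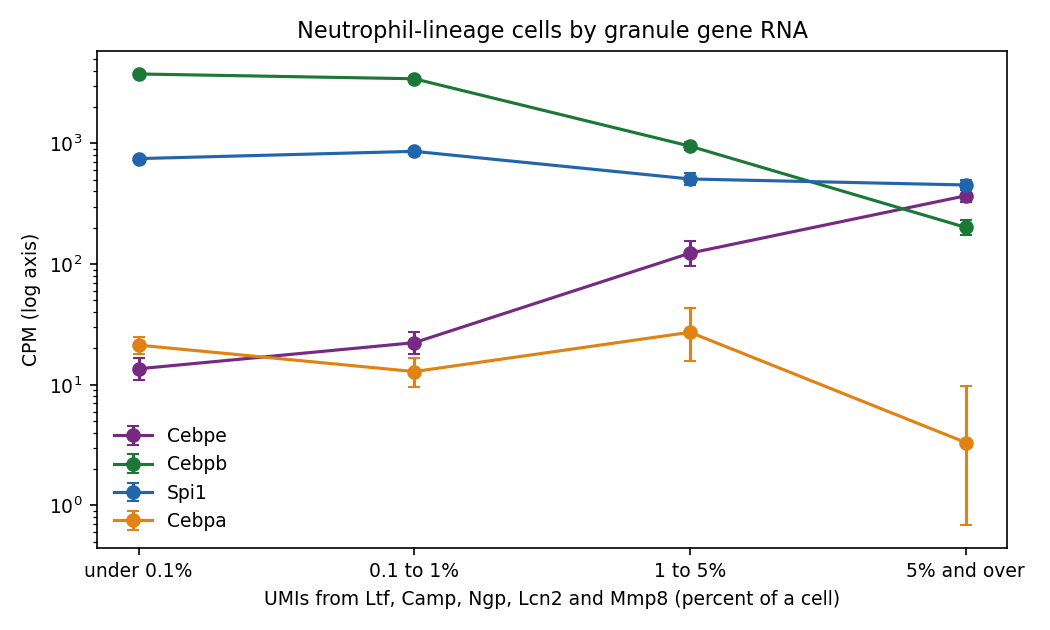
Level of Cebpe, Cebpb, Spi1 and Cebpa in CPM (log axis, points with exact 95% intervals) in neutrophil-lineage cells grouped by the share of their UMIs from 5 granule genes. Cebpe runs from 13.6 to 369 CPM across the 4 ranges and Cebpb from 3768 to 202. Library 4 gave 76 of the 91 cells in the top range, so the ranges differ in their mix of libraries.

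Spi1 (2:91082390-91115756, plus strand) was the broadest myeloid member. Pooled, neutrophils were at 790 CPM (774 to 806) and nonclassical monocytes at 771 (757 to 785), but the order differed by library set. In libraries 1, 2, 3 and 7 neutrophils were at 977 and nonclassical monocytes at 774 CPM, and in libraries 4, 5 and 6 at 598 and 764 CPM. Eosinophils at 651 CPM (534 to 786) overlapped classical monocytes at 597 CPM (587 to 608). Lower came immature neutrophils at 470 (436 to 506), alveolar macrophages at 434, C1q macrophages at 378, the dendritic cluster at 355 and basophils at 325. B cells, in which PU.1 is also active, had 90.3 CPM and T cells 5.04.

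By library, neutrophil Spi1 was 1001, 941, 966 and 1021 CPM in libraries 1, 2, 3 and 7 and 513, 603 and 677 in libraries 4, 5 and 6. The sets did not overlap, yet the pooled difference of 977 against 598 CPM (log2 −0.71, −0.77 to −0.65) stayed under 2-fold. At a limit of 1.5-fold Spi1 was called along with Cebpb, 2 of 4 members tested, against 21.6% of all genes tested. Within cluster 18 the sets overlapped, at 643, 741, 546 and 752 against 366, 634 and 760 CPM, and so they did in cluster 37. In cluster 8 they did not, at 1114, 1010, 1083 and 1099 against 634, 851 and 634 CPM. Libraries 4, 5 and 6 held 8, 4 and 1 cells there. Nor did they overlap in cluster 34, at 777, 748, 810 and 961 against 732, 569 and 705 CPM. Libraries 5, 6 and 7 held 6, 8 and 6 cells of that cluster. In monocytes the sets overlapped, with log2 ratios of −0.09 (−0.14 to −0.04) in classical and −0.02 (−0.08 to 0.04) in nonclassical cells. B cells stood at 68.3 to 85.4 against 92.1 to 101 CPM, the second set slightly higher without overlap. The dendritic cluster likewise ran from 289 to 398 against 530.5 to 640 CPM. The share of all genes whose sets did not overlap, whatever the fold, was not counted in any class. Targets of PU.1 were each highest in a different myeloid class, with Tyrobp in neutrophils, Csf1r in nonclassical monocytes, Fcgr1 in classical monocytes, Itgam in eosinophils and Cd68 in Arg1 macrophages.

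Irf4 (13:30749226-30766976, plus strand) was spread over plasmacytoid dendritic cells at 80.1 CPM (64.6 to 98.2), plasma cells at 69.5 (62.5 to 77.1) and mature dendritic cells at 65.7 (56.0 to 76.6), all overlapping when pooled. By library the first pair differed in order. In libraries 1, 2, 3 and 7 plasmacytoid cells were at 70.2, 47.2, 49.7 and 48.7 CPM and plasma cells at 135, 120, 279 and 165. In libraries 4, 5 and 6 they were at 84.4, 196 and 77.0 against 14.4, 45.1 and 21.6. The plasmacytoid values rest on few cells, 21, 20, 28 and 16 in libraries 1, 2, 3 and 7 and 10, 13 and 5 in libraries 4, 5 and 6. Libraries 4, 5 and 6 gave 47, 186 and 181 of the 513 cells of the plasma class. There the class lay below B cells of the same libraries, at 39.1, 55.6 and 43.9 CPM. Whether its cells are of the same type in both library sets was not tested. The mixed dendritic cluster at 52.0 CPM and B cells at 51.0 overlapped too, below plasma cells. C1q macrophages had 35.3 CPM and classical monocytes 27.9. Eosinophils and basophils held no Irf4 UMI, where 3 UMIs would be 18.1 and 7.79 CPM.

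Finer clusters separated the dendritic types. A cluster of 607 type 2 dendritic cells had 95.9 CPM (89.5 to 103) of Irf4 and one of 460 type 1 dendritic cells 3.07 CPM (1.97 to 4.57). Type 2 cells were at 105, 70.0, 83.2 and 128 CPM in libraries 1, 2, 3 and 7 and 113, 148 and 81.7 in libraries 4, 5 and 6, so the sets overlapped. A 122-cell plasma cluster had 154 CPM (137 to 173), above the 69.5 CPM of the whole plasma class. Hemoglobin made up 30.5% of the plasma class.

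**Figure D5:**
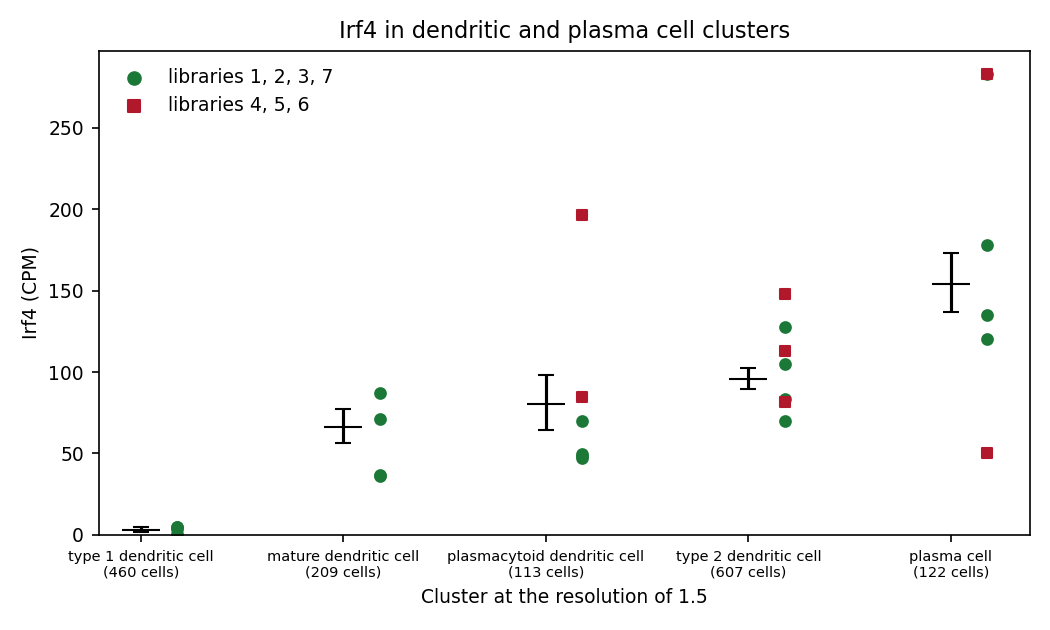
Irf4 level in CPM in 5 dendritic and plasma clusters at the finer resolution of 1.5, with the pooled value and its exact 95% interval (bars) and each library with at least 10 cells (green circles for libraries 1, 2, 3 and 7, red squares for libraries 4, 5 and 6). Type 1 dendritic cells sit at 3.07 CPM and type 2 cells at 95.9.

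Alveolar macrophages, found in libraries 1, 2, 3 and 7, differed in Irf4 by library. Library 1 stood at 43.3 CPM, and libraries 2, 3 and 7 at 4.23, 4.45 and 7.76 CPM. Library 1 held most of its cells in cluster 14 and the other libraries in cluster 2. Within cluster 14 the values were 48.9 CPM (43.7 to 54.6) in library 1 and 9.997, 16.7 and 22.1 CPM in libraries 2, 3 and 7, and within cluster 2 they were 20.8 CPM (14.4 to 29.1) and 3.41, 3.03 and 6.15 CPM. Library 1 was thus highest in both clusters, beyond the counting intervals of the others. In Arg1 and C1q macrophages library 7 was highest instead, at 39.8 and 79.5 CPM, against 22.2 and 36.2 CPM in library 1. Cebpa and Cebpb in alveolar macrophages varied less, from 143 to 175 and from 1655 to 2375 CPM.

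Gfi1 (5:107716657-107726036, minus strand) was counted mainly in lymphocytes. NK cells had 24.5 CPM (19.4 to 30.4) and T cells 19.5 (17.3 to 22), which overlap. Basophils had 10.4 CPM from 4 UMIs, immature neutrophils 3.99 from 6 and eosinophils 6.03 from 1, against 1.5 CPM (17 UMIs) in neutrophils. In T cells it was 40.4, 12.2, 15.02 and 35.1 CPM in libraries 1, 2, 3 and 7 and 5.82, 16.4 and 5.04 in libraries 4, 5 and 6, so the sets overlapped. T cell Irf4 overlapped likewise, at 29.99, 12.2, 20.6 and 27.4 CPM against 0, 12.5 and 1.68.

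The genes whose class pattern was nearest each member were ranked by Pearson's r of log2(CPM + 1) over the 24 classes, among 14211 genes with at least 200 UMIs. The classes share libraries and depth, so r is a description only. Nearest to Gata1 were Il4 (r = 0.91), Ccr3 and Gfi1b, nearest to Gata2 Sncaip (0.85), Btnl9 and Mcpt2, and nearest to Cebpe 9830107B12Rik (0.97), Itgb2l and B230208H11Rik. Spi1 was closest to Pirb (0.98) and Nfam1, and Cebpb to Fgd4 (0.90), Fosl2 and Tmem43. Cebpa came nearest to Mfsd13a (0.92), Trf and Gm43796, Irf4 to Il21r (0.87), Arl5c and Zc3h12d, and Gfi1 to Rab37 (0.88) and Il12rb1. Klf1, itself under 200 UMIs, had no close match (Ghitm 0.56, AK157302, Slc25a51). Between Gata1 and Gata2 r was 0.46.

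Other lineage factors outside the 9 filled in the myeloid classes. Of 12 such genes, Runx1, Bhlhe41 and Pparg, the last a regulator of alveolar macrophages, were highest in alveolar macrophages at 430, 207 and 111 CPM. Klf4 and Zbtb7a were highest in nonclassical monocytes, and Irf8 and Bcl11a in plasmacytoid dendritic cells at 1952 and 563 CPM. Nfe2 was highest in eosinophils at 452 CPM, Gfi1b in basophils, Cebpd in fibroblasts at 924 CPM and Myb, at 80.7 CPM, in a cluster led by both club and ciliated cell genes. None of the 12 was highest in the late erythroid class, and of the 9 members only Klf1 was.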

How the data were processed

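Single-cell RNA from mouse lung was measured by the authors with a droplet kit (version 3 per the labels, version 2 per the supplementary methods). The authors deposited UMI counts for each gene and barcode, made with Cell Ranger and STAR on mm10 according to the submitters' processing notes, after reads were down-sampled as required to even out the libraries. They are not normalized, and no source used here says whether counting used the strand. The matrix holds 7 libraries and 0 columns of other samples. Library totals ran from 29701569 to 79439569 UMIs.

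Barcodes with over 10% mitochondrial UMIs were left out. Each cell was scaled to a sum of 10000 before the log, and the 2000 most variable genes (members excluded) gave 30 principal components, aligned between libraries by mutual nearest neighbors. Leiden clusters (20 neighbors, resolution 0.8) took a class name with at least 3 of its markers in 10% of cells and no other class leading among the 10 top genes. A cluster with under one over 3 of its libraries' median UMIs also needed a marker among those genes. No doublet caller was run. An alternative left out cells with 3 markers of another lineage. CPM, exact 95% Poisson and exact binomial (Clopper-Pearson) intervals were computed, and no UMI was read as up to 3 counts. Scripts were tested on simulated data. Python 3.11.15, numpy 2.4.6, scipy 1.17.1, scikit-learn 1.9.0, igraph 0.11.9, leidenalg 0.10.2 and matplotlib 3.10.9 were used. Gene positions came from GENCODE M21, in which 30934 of the gene identifiers were found.

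The 9 members, the gene lists and the library sets were chosen with earlier results of these data known. The genes named are the members, the listed related genes and the 3 genes nearest each member in class pattern, apart from a few that are not reported here. Alternatives were no alignment, other limits, resolutions, gates and denominators, a median over libraries, and leaving out each library. Added after seeing the data were the split by platelet RNA, the granule ranges, the immediate-early list, mast cell protease RNA in basophils, single neutrophil, B cell, T cell and monocyte clusters, and a second filter on mixed cells.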

Additional observations from a re-analysis of the deposited data

How the results depend on the processing

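No paired analysis was possible because no label gives the libraries a group or a replicate number and no test was made. Across 332 recomputed values, 232 moved by less than their interval or stayed within 1.5 times for counts, and 100 moved further. Only the Cebpb log2 ratios could be scored as reversed, by a change of sign, and 0 of them were. The class with the highest level was the same in all 17 alternatives, the 7 that leave out a library included, for Gata1 (46.3 CPM from 1 UMI in eosinophils without library 7), Gata2 and Cebpa, in 16 for Cebpb, Cebpe and Gfi1, 15 for Klf1, 10 for Spi1 and 8 for Irf4. With the median over libraries of at least 20 cells, Gata2 in basophils was 2470 CPM (1 library) and Cebpe in eosinophils 459 CPM. Cebpe in immature neutrophils was 343 CPM by a per-cell marker gate and 135 CPM without mixed cells, and the class was not found at the resolution of 0.4. Gata1 in the class named late erythroid was 3.37 CPM without alignment and at the resolution of 0.4, where the class was drawn anew and may hold different cells. In the main class it was 19.3 CPM with hemoglobin out of the total. The Cebpb log2 ratio in neutrophils was −3.95 under the study's UMI and gene limits, −4.03 at the resolution of 0.4, −3.47 by the gate, −3.52 without mixed cells, −3.81 with erythroid and platelet lists not counted in that filter, −3.50 without hemoglobin, −3.77 by medians, −2.89 in cluster 18 alone and −4.22 without clusters 34 and 37, the last 2 and the second filter chosen after seeing the data. At 50 CPM or more, 463, 155, 150, 127 and 210 genes were set apart in neutrophils, classical and nonclassical monocytes, B cells and T cells, and at 1.5-fold 1459, 681, 697, 654 and 1014, as those limits test fewer genes or ask for less. Leaving out 1 library at a time gave 1807 to 2113 CPM for Gata2 in basophils, 92.6 to 796 for Cebpe in eosinophils (lowest without library 7), 168 to 282 for Cebpe in immature neutrophils (lowest without library 4), 1.76 to 2.82 for Gata1 in late erythroid cells, and log2 ratios of Cebpb from −4.01 to −3.73 in neutrophils, −1.49 to −1.33 and −1.12 to −0.92 in classical and nonclassical monocytes, −3.38 to −3.05 in B cells and −2.66 to −2.46 in T cells. Over all alternatives it ran from −1.49 to −1.26, −1.12 to −0.71, −3.79 to −2.60 and −3.60 to −2.45 in these 4 classes, with B cells lowest at a mitochondrial limit of 5% and T cells at the resolution of 0.4. The filter on mixed cells removed 12371 of 33618 cells and left no ratio in monocytes, B cells or T cells. Its lists included hemoglobin genes. It removed 1797 of 2992, 2534 of 4888 and 3181 of 4882 cells in libraries 4, 5 and 6. In libraries 1, 2, 3 and 7 it removed 675 of 4800, 2533 of 7626, 1334 of 5129 and 317 of 3301. With erythroid and platelet lists not counted it removed 5674 cells. The part of hemoglobin RNA in the moves under this filter was not tested. Depth limits Klf1, Gata1 and Gfi1, which had 65, 242 and 495 UMIs in all, and eosinophils, with a median of 555 UMIs. Causes of the moves not named here were not tested.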
